A study of Mus musculus with 24 samples.

Results

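Polysome loading was ranked across the mRNAs of transformed mouse embryonic fibroblasts. The ranking rested on 12 of the 24 arrays of the series: total RNA and RNA of heavy polysomes from 6 cultures. Loading was the log2 polysomal value minus the log2 total value of the same culture, and each culture was centred on its median over 20777 probe sets that name 1 gene. A gene was taken as measured where its mean total RNA over the 6 transformed cultures lay above a log2 value of 6.79. Under this level fell 95% of 1013 olfactory receptor probe sets. The filter left 12952 of 19661 genes. The 1295 genes with the highest mean loading over the 6 cultures (10%) formed the well loaded class, and the 1295 with the lowest formed the poorly loaded class.

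Fibroblasts were taken from 6 E13.5 embryos, of which 3 were wild type (WT) and 3 Eif4e+/- (Het); the latter keep 1 intact allele of the gene for the cap-binding protein eIF4E. The transformed cells carried Ras and Myc. The untransformed early-passage cells of the same 6 embryos, 12 further arrays, served as samples that the ranking did not use. The genes measured in the transformed cells were used there too, without a filter on untransformed total RNA. Cultures were kept in 10% serum and collected while growing exponentially. For the polysomal RNA, cells received cycloheximide at 100 µg/ml, and cytoplasmic extracts were separated on sucrose gradients of 10 to 50%.

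An mRNA that is being translated carries several ribosomes at once, and such polysomes sediment faster through sucrose than free RNA or single ribosomes. The share of an mRNA found in heavy polysomes depends on how often ribosomes start, how fast they move and how long the reading frame is, since a short frame has room for few ribosomes. RNA that stays in the nucleus is part of total RNA but not of a cytoplasmic gradient, and noncoding RNA in other heavy particles can sediment with polysomes.

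Transformed total arrays had means of 7.47 to 7.5 and SDs of 1.71 to 1.80 over probe sets, and polysomal arrays had means of 3.78 to 3.79 and SDs of 1.25 to 1.42. Level and spread thus differed between the fractions, and a loading of 0 is the middle of the array, not a known share of an mRNA on ribosomes. In these bulk samples, fewer cells of a type and less RNA per cell cannot be told apart. Fibroblast markers were above background for 12 of 15 genes with a median total RNA of 9.11 (S100a4 12.31); leukocyte markers were above it for 6 of 13, endothelial for 3 of 9, epithelial for 5 of 9, neural for 8 of 10 and muscle for 5 of 8, with medians of 6.41 to 7.25. Cd68, Krt8, Krt18, Sox2, Nes and Tnnt2 were the markers of other cell types above 8.5. Ptprc (6.35), Pecam1 (6.22) and Epcam (6.42), from the leukocyte, endothelial and epithelial lists, were not above background. Other members of these lists, such as Cd3e, Cdh5, Vwf, Krt5 and Krt14, lay above background but below 8.5. The fibroblast markers not above background were Lum, Fap and Tcf21. The part of other cells in the results was not tested. Eif4e, the targeted gene, had total RNA of 9.80, 9.67 and 9.40 in the WT cultures and 9.10, 8.84 and 9.21 in the Het cultures, so the genotypes did not overlap.

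Loading spread over more than 9 log2 units, from -4.61 to 4.74, with a median of -0.31. In the limma test against the culture median 2049 genes were called above it (15.8% of those tested) and 6682 below it (51.6%), at an adjusted p under 0.05. The ranking used this contrast, so nothing is read from the members' share of these calls. A loading of 0 is the middle of all probe sets, those of unexpressed genes included. With each culture centred on its measured genes instead, 4475 genes were above and 4809 below, so list medians are set against the -0.31 of all measured genes from here on. The well loaded class ran from 0.46 to 4.74 with a median of 0.75, and the poorly loaded class from -4.61 to -1.85 with a median of -2.31. In 6 of 6 cultures 1218 well loaded genes lay above the median (14.7% of all genes did) and 1291 poorly loaded ones below it (48.3% of all did), which the ranking itself favours. Aqp3 at 0.463 and Armc5 at 0.462 stood on either side of the upper limit, and Lipa at -1.853 and Cdk14 at -1.852 on either side of the lower one. In 258 poorly loaded genes (19.9%) the polysomal value was not above its own background of 3.38, and their loading is only an upper bound. This held for 16.1% of all measured genes. For well loaded genes the count was 0, which the total RNA filter and the class limit fixed in advance.

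**Figure D1:**
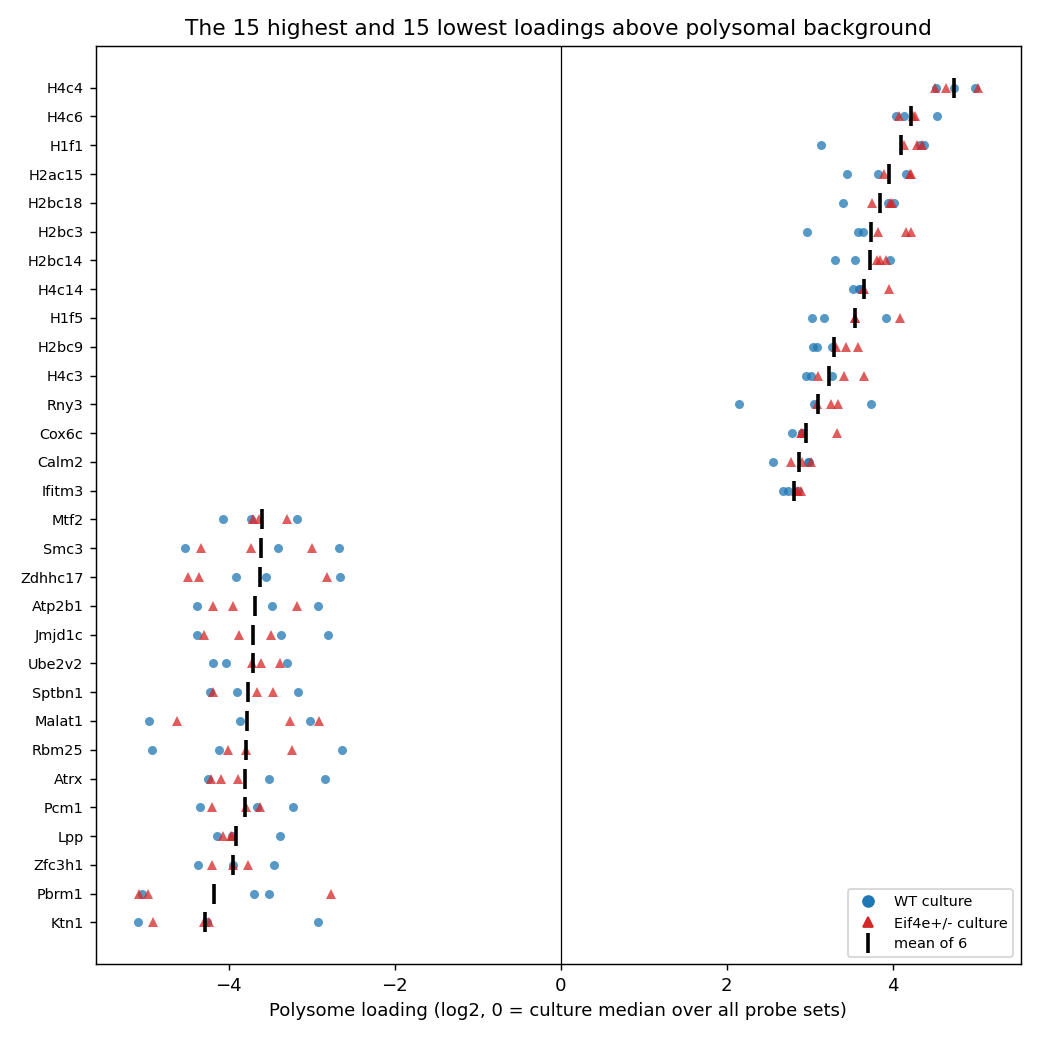
Loading of the 15 mRNAs with the highest and the 15 with the lowest mean loading among those with a mean above polysomal background (y axis), on the log2 scale (x axis), with 1 point per transformed culture (circles, 3 WT; triangles, 3 Eif4e+/-) and the mean as a bar. Of the 15 highest, 11 are replication histones between 3.23 and 4.74, and the cultures of the 2 ends lie more than 4 log2 units apart.

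Replication-dependent histone mRNAs stood at the top. These genes make the nucleosome and linker histones of S phase, and their mRNAs end in a stem-loop and carry no poly(A) tail. Of 20 measured members 18 were well loaded and 0 poorly loaded, with a median of 3.26 against -0.31 for all genes. H4c4, a histone H4 gene, had loadings of 4.74, 4.52 and 4.99 in WT and 4.51, 4.64 and 5.03 in Het cultures (4.74 ± 0.23, SD, n = 6). H4c6 followed at 4.22 ± 0.18, H1f1, a linker histone, at 4.10 ± 0.48, H2ac15 at 3.96 ± 0.30, H2bc18 at 3.84 ± 0.24 and both H2bc3 and H2bc14 at 3.73. H4c14 reached 3.66 ± 0.15, H1f5 3.55 ± 0.41, H2bc9 3.29 ± 0.21 and H4c3 3.23 ± 0.26. In each of these 11 genes no culture lay below 2.96. The exceptions were H2bc21 at -0.96 ± 0.41, below the culture median in all 6 cultures, and H3c15 at 0.18 ± 0.82, which ran from -0.68 to 1.60. Histone genes of 1 type are close copies of each other, so a probe set may read several of them, and the order among members is uncertain.

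The 50 bases before the annotated starts of the 4 highest histone genes are shown because they hold the core promoter of the best loaded mRNAs (RefSeq, build GRCm38.p6, each on the gene's own strand). The capitals mark TATAAA, the core promoter motif, which was searched on the gene's strand.
H4c4, chr13:23581518-23581567, plus strand: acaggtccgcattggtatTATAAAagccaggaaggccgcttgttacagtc
H4c6, chr13:23551669-23551718, minus strand: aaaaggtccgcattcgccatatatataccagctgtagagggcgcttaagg
H1f1, chr13:23763618-23763667, plus strand: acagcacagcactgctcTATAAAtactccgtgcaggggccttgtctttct
H2ac15, chr13:21753913-21753962, minus strand: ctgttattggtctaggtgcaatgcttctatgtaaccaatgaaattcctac
The motif was found in 7 of the 17 histone genes with an entry (41.2%), against 199 of 10015 measured coding genes (1.99%), 35 of 1029 well loaded ones (3.40%) and 7 of 1031 poorly loaded ones (0.679%). H4c6 and H2ac15 do not hold these letters in the window.

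After the histones came mRNAs of several kinds. Cox6c, a small subunit of cytochrome c oxidase, had loadings of 2.79, 2.91 and 2.91 in WT and 2.90, 2.90 and 3.32 in Het cultures (2.95 ± 0.19). Calm2, which encodes calmodulin, stood at 2.87 ± 0.18 and Ifitm3, an interferon-induced membrane protein, at 2.81 ± 0.08, with all 6 cultures between 2.68 and 2.89. These 2 mRNAs are among the brightest on the arrays, with total RNA of 13.29 and 12.88, and their place depended on the scale: with both fractions forced onto a common distribution, Calm2 fell to -0.13 and Ifitm3 to 0.48, whereas H4c4 stayed at 4.01 and Cox6c at 2.24. Rny3 is a noncoding Y RNA, yet its loading was 3.10 ± 0.53, and the other measured Y RNA, Rny1, had 2.56. A high value therefore says that an RNA was recovered in the heavy fraction, not that it was translated.

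**Figure D2:**
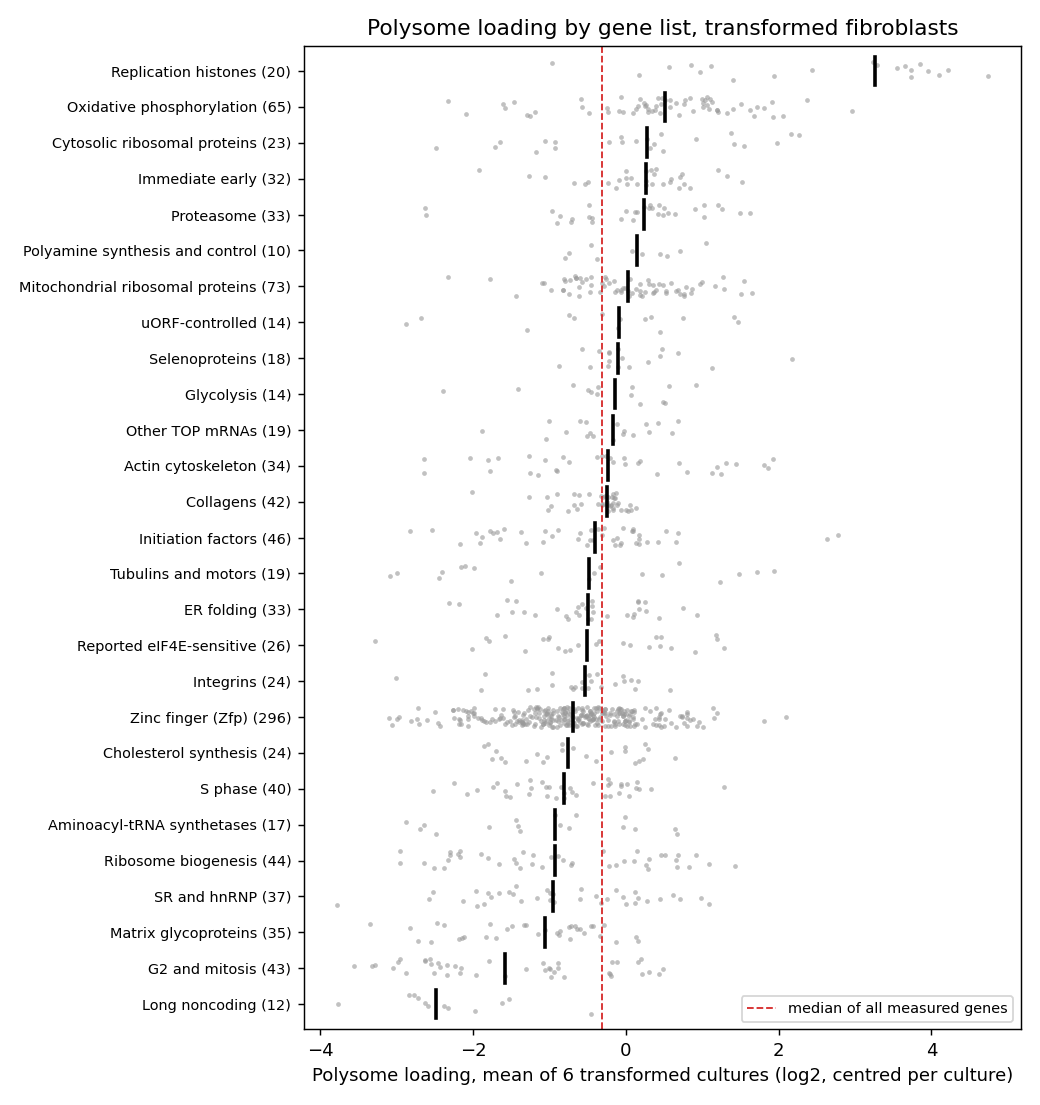
Mean loading over 6 transformed cultures (x axis, log2) of each measured member of 27 gene lists (grey points), with the list median (black bar) and the number of members in brackets. The dashed line is the median of all measured genes at -0.31; medians run from 3.26 for replication histones to -2.49 for long noncoding RNAs.

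Nuclear-encoded subunits of oxidative phosphorylation, the respiratory chain and ATP synthase of mitochondria, were the next list in order of median (0.52, with culture medians of 0.38 to 0.87). Of 65 members 35 were well loaded and 2 poorly loaded. Ndufc2, an accessory subunit of complex I, followed Cox6c with 2.37 ± 0.13. The low end held Sdha, the large flavoprotein subunit of complex II, at -2.33 ± 0.33, and Cox7a2l, a supercomplex assembly factor, at -2.09 ± 0.62; all 6 cultures of both were below -1.2. Within complex II the 4 subunits differed: Sdhb had 1.51, Sdhc 1.06 and Sdhd 0.29. These 3 were named after their values were seen.

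The proteasome list had a median of 0.24, with 11 of 33 genes well loaded and 2 poorly loaded. Psmd13 had 1.63 ± 0.14 and Psmb4, a beta subunit of the core, 1.49 ± 0.19, against -2.62 ± 0.48 for Psmd1, a scaffold of the regulatory particle, and -2.63 ± 0.42 for Psmd10. Mitochondrial ribosomal proteins had a median of 0.02, with 20 of 73 well loaded and 1 poorly loaded; Mrps34 stood at 1.65 ± 0.27 and Mrps31 at -2.32 ± 0.92. Immediate early genes, which growth signals switch on within minutes, had a median of 0.26, with 11 of 32 well loaded and 1 poorly loaded. Jund reached 1.52 ± 0.24 and Fosl1, both subunits of the AP-1 transcription factor, 1.32 ± 0.11, while Klf6 was at -1.93 ± 0.37. Myc itself, which was also introduced into these cells, had loadings of 0.83, 0.68 and 0.28 in WT and 0.99, 0.21 and 0.54 in Het cultures (0.59 ± 0.31). The medians of these 4 lists, of the histones and of the cytosolic ribosomal proteins lay above that of all measured genes under each of 14 other processing settings.

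Cytosolic ribosomal proteins and other mRNAs with a terminal oligopyrimidine (TOP) start are translated together when the mTOR pathway is active. Of 23 measured ribosomal proteins 8 were well loaded and 1 poorly loaded, with a median of 0.27. Rps14 had loadings of 2.35, 2.14 and 2.05 in WT and 2.29, 2.16 and 2.64 in Het cultures (2.27 ± 0.21), and Rplp1 had 2.16 ± 0.34. At the other end Rpl12 had -2.83, -2.24 and -2.43 in WT and -2.95, -2.18 and -2.30 in Het cultures, with a polysomal value not above background, so that -2.20 is its upper bound; Rpl23 had -1.72 ± 0.32. The 2 ends did not overlap in any culture. Most ribosomal protein genes have processed copies elsewhere in the genome, so these probe sets are uncertain.

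The 30 bases from 10 before the annotated start are shown for the 3 best and the 3 worst loaded ribosomal protein genes with an entry, because a TOP mRNA is defined by its first bases (RefSeq, build GRCm38.p6, gene's own strand). The capitals mark a C followed by 4 or more pyrimidines that begins within 5 bases of the start.
Rpl26, chr11:68901556-68901585, plus strand: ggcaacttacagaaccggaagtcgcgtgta
Rpl34, chr3:130730379-130730408, minus strand: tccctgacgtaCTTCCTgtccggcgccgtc
Rps3, chr7:99483690-99483719, minus strand: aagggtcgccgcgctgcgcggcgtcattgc
Rplp0, chr5:115559457-115559486, plus strand: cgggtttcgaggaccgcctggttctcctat
Rpl23, chr11:97782420-97782449, minus strand: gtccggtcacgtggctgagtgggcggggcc
Rpl12, chr2:32961702-32961731, plus strand: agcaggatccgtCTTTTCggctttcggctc
Their loadings were 1.98, 1.54, 1.41, -1.65, -1.72 and -2.49 in this order, so a tract at the annotated start was found once at each end. Such a tract was present at 10 of the 19 ribosomal protein starts with an entry (52.6%), at 1982 of 10015 coding starts (19.8%), at 170 of 1029 well loaded ones (16.5%) and at 182 of 1031 poorly loaded ones (17.7%). Rpl34 has 2 annotated starts, of which 1 is shown, and the starts used in these cells were not measured. Rpl34, Rps3 and Rplp0 were named to show 3 sequences at each end.

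The other TOP mRNAs had a median of -0.17, above that of all genes except on a common distribution or without the filter on low total RNA, with 2 of 19 well loaded and 1 poorly loaded. Eif3k had 0.68 ± 0.29 and Eef2, the translocation factor of elongation, 0.60 ± 0.29, but Eef2 fell to -0.24 with both fractions on a common distribution. Eef1b2, another elongation factor, had -1.04 ± 0.42, Pabpc1, the cytoplasmic poly(A)-binding protein, -0.60 ± 0.30, and Eif4b, the activator of the eIF4A helicase, -1.88 ± 0.44. Initiation factors spanned more than 5 log2 units with a median of -0.40, which lay above that of all genes with the stricter filter, with the trend on total RNA removed or without the 2 cultures of narrowest polysomal spread. Eif5a, which relieves stalled ribosomes, had loadings between 2.56 and 3.00 (2.77 ± 0.15), and Eif4h, a helicase cofactor like Eif4b, between 2.22 and 2.86 (2.64 ± 0.26). Eif5b, the GTPase of subunit joining, had -2.82 ± 0.55 and Paip1, a partner of the poly(A)-binding protein, -2.54 ± 0.75. Eif4e itself had loadings of -1.31, -0.56 and -1.13 in WT and -0.83, -1.38 and -0.63 in Het cultures, and Eif4ebp1, its repressor, -0.46 ± 0.22.

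mRNAs reported elsewhere as eIF4E-sensitive did not gather at 1 end. Of 26 members 5 were well loaded and 2 poorly loaded, with a median of -0.51, which lay above that of all measured genes when the trend on total RNA was removed or the stricter filter was used. Bcl2l1, an inhibitor of apoptosis, had 1.29 ± 0.16 and Cox7b 1.19 ± 0.31, against -2.02 ± 0.67 for Fth1, the ferritin heavy chain, and -3.29 ± 0.42 for Tlk1, a chromatin kinase. Of 14 mRNAs controlled by upstream reading frames 3 were well loaded and 2 poorly loaded: Cebpb had 1.47 ± 0.32 and Slc35a4 1.42 ± 0.30, while Ibtk had -2.69 ± 0.21 and Eprs -2.88 ± 0.43.

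The lowest 15 RNAs whose mean lay above polysomal background were 14 mRNAs and the noncoding RNA Malat1. In 7 of them, Ktn1, Pbrm1, Zfc3h1, Pcm1, Jmjd1c, Atp2b1 and Zdhhc17, single cultures did not (12 of the 90 values, of which 7 in WT culture 3), so those loadings, and the means that hold them, are inexact. Ktn1, which encodes the kinesin-binding membrane protein kinectin, had loadings of -4.26, -2.93 and -5.09 in WT and -4.23, -4.91 and -4.29 in Het cultures (-4.29 ± 0.76). Pbrm1, a subunit of a chromatin remodelling complex, had -4.18 ± 0.98, Zfc3h1, a nuclear RNA decay factor, -3.95 ± 0.32, Lpp, a focal adhesion protein, -3.91 ± 0.27, Pcm1, a centriolar satellite protein, -3.81 ± 0.41, and Atrx, a chromatin remodeller, -3.80 ± 0.54. They were followed by Rbm25, a splicing regulator (-3.79 ± 0.79), Malat1, which is nuclear (-3.77 ± 0.86), Sptbn1, a spectrin (-3.77 ± 0.42), Ube2v2 (-3.70 ± 0.35), the demethylase family member Jmjd1c (-3.70 ± 0.60) and Atp2b1, a calcium pump (-3.68 ± 0.58). Zdhhc17, a palmitoyltransferase (-3.63 ± 0.77), Smc3, a cohesin subunit (-3.61 ± 0.73), and Mtf2, a Polycomb protein (-3.60 ± 0.32), closed the group. All 6 cultures of all 15 lay below -2.6, and WT culture 2 was the highest of the 6 in all but Pbrm1 and Malat1.

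For some of these genes the probe sets disagreed. The other measured probe sets of Lpp reached -1.03 and those of Jmjd1c -0.18. Over the 365 genes with 2 or more measured probe sets the median range of loading within a gene was 0.68, and in 138 of them it was over 1. Of the 120 such genes in the well or poorly loaded class, 68 had a range over 1, so their class depends on the probe set used. The snoRNA host genes Gas5 and Taf1d were the clearest cases: their brightest probe sets had 1.19 ± 0.14 and 1.88 ± 0.55, their lowest ones -3.93 and -3.60.

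The 10 brightest poorly loaded genes without polysomal signal above background had upper bounds between -4.09 and -3.62. Insr, the insulin receptor, had a total RNA of 11.06 and a bound of -4.08; 4932438A13Rik had a bound of -4.05, Trps1, a zinc finger repressor, -3.77, Setd2, a histone H3 methyltransferase, -3.66, Bod1l -3.63 and Stxbp4 -3.62. The deubiquitinase gene Zranb1 lay in the same range, and the remaining 3 were the small nucleolar RNAs Snord82 (-4.09), Snord22 (-3.94) and Snord53 (-3.76), which guide the modification of ribosomal RNA in the nucleolus. Of all 40 measured snoRNA genes 26 were poorly loaded, 25 had no polysomal signal above background, and the median was -2.35, or -1.75 with these at their bound; Snord104 was the 1 member in the well loaded class, at 2.64 ± 0.40 (named after its value was seen).

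Of a list of 12 long noncoding RNAs, most of them nuclear, 9 were poorly loaded, 0 well loaded and 7 without polysomal signal above background. Their measured median of -2.49 is therefore inexact; with such genes set at their upper bound it was -2.17, still below that of each other list (G2 and mitosis, -1.59) and of all genes on that scale (-0.25). Rian, a noncoding RNA of the Dlk1 imprinted region, varied most: WT culture 1 had 0.25 and the other 5 had -4.68 to -2.85. Meg3, from the same region, showed the same culture apart, with 0.06 in WT culture 1 and -3.12 to -2.09 in the other 5. The polysomal value of Rian was not above background, so that -1.88 is the upper bound of its mean. The 318 measured genes that RefSeq annotates as long noncoding RNA had a median of -0.20, with 19 well loaded and 18 poorly loaded. Their median total RNA was 7.47, and at this level the limit of the poorly loaded class lies below polysomal background. In 109 of the 318 (34.3%) the polysomal value was not above background, against 16.1% of all measured genes. The median of -0.20 is therefore inexact too.

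Genes of G2 and mitosis had the lowest median among the lists of coding genes, -1.59, with 20 of 43 poorly loaded and 1 well loaded; the median was below that of all genes in each of the 14 other settings. Cenpe, a motor of the kinetochore, had loadings between -3.90 and -3.09 (-3.55 ± 0.28) and Ect2, which sets the cleavage furrow, between -3.78 and -2.94 (-3.32 ± 0.28). Cdc20, the activator of the anaphase-promoting complex, had 0.49 ± 0.21 and Plk1, a mitotic kinase, 0.44 ± 0.25, so the list spanned more than 4 log2 units without an overlap between its ends. S phase genes had a median of -0.81, from -2.53 ± 0.30 for Pola1, the catalytic subunit of DNA polymerase alpha, to 1.28 ± 0.40 for Pold2, a small subunit of polymerase delta.

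Matrix glycoproteins, the adhesive and elastic proteins that fibroblasts secrete, had a median of -1.06 (-0.90 with genes below polysomal background at their bound), with 9 of 35 poorly loaded and 0 well loaded. Vcan, the large proteoglycan versican, had loadings of -3.45, -3.24 and -3.59 in WT and -3.18, -3.29 and -3.37 in Het cultures (-3.35 ± 0.15), and Tnc, tenascin C, had -2.83 ± 0.34. Mfap2, a small microfibril protein, and Sparc were the highest at 0.15 ± 0.35 and 0.13 ± 0.24. Collagens lay close to all genes, at -0.24 (below them with the trend removed or without the filter), with 0 of 42 well loaded and 1 poorly loaded. The exception was Col12a1 at -2.02 ± 0.98, where WT culture 1 stood apart at -0.05. Integrins had a median of -0.54, which was -0.26 with such genes at their bound and then close to all genes at -0.25, from -3.01 ± 0.54 for Itga6 to 0.58 ± 0.15 for Itgad.

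Aminoacyl-tRNA synthetases had a median of -0.93, with 4 of 17 poorly loaded and 2 well loaded. Eprs, the fused glutamyl-prolyl enzyme, and Lars, the leucyl enzyme, had -2.88 ± 0.43 and -2.70 ± 0.52, while Hars and Yars, the histidyl and tyrosyl enzymes, had 0.66 ± 0.23 and 0.64 ± 0.18. Ribosome biogenesis genes downstream of MYC had a similar median, -0.94, but held members at both ends, 12 of 44 poorly loaded and 8 well loaded. The median minus that of all genes was -0.62 for the synthetases, but -0.18 with the trend on total RNA removed. For ribosome biogenesis this difference was -0.62 and came as close as -0.05 in the other settings. Heatr1 and Utp20, large scaffolds of the small-subunit processome, had -2.96 ± 0.49 and -2.95 ± 0.22, and Nip7 and the methyltransferase Fbl 1.43 ± 0.39 and 1.09 ± 0.22. Tubulins and motors were split in the same way around -0.48, which lay above all genes with the trend removed: Tuba1a had 1.94 ± 0.13 and Tubb2b 1.72 ± 0.39, whereas the crosslinker Macf1 had -3.09 ± 0.22. In the actin cytoskeleton list, with 10 of 34 well loaded and 3 poorly loaded, Cnn2 had 1.92 ± 0.16 and Pfn1, profilin, 1.86 ± 0.14 against -2.65 ± 0.46 for Iqgap1 and -2.64 ± 0.38 for the myosin heavy chain Myh10. Actb itself had 1.80 ± 0.23, but -0.49 with both fractions on a common distribution.

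SR and hnRNP splicing factors had a median of -0.96, which lay above that of all genes by 0.14 once the trend on total RNA was removed. Hnrnpab and Hnrnpl had 1.08 ± 0.14 and 0.98 ± 0.11, Rbm25 and Clk4 -3.79 ± 0.79 and -2.57 ± 0.36. The 296 measured genes of the Zfp zinc finger family, mostly transcriptional repressors, had a median of -0.69 (-0.53 with genes at their bound), with 35 poorly loaded and 24 well loaded, and 100 had no polysomal signal above background. Zfp971 was the highest at 2.09 ± 0.28, ahead of Zfp428 at 1.81 ± 0.23, and Zfp638 the lowest at -3.11 ± 0.29.

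Loading differed with the level of total RNA. With the measured genes in 10 equal bins by total RNA, loadings in the dimmest bin lay between -0.17 and 0.19 from the 25th to the 75th percentile, and 0 genes were poorly loaded. At this total RNA the class limit of -1.85 lies at a polysomal value below the background of 3.38. Dim genes could thus hardly enter the poorly loaded class, and the narrow spread at the dim end is not read as a property of loading. In the brightest bin these percentiles were -2.11 and -0.11, with 406 poorly and 182 well loaded genes. The poorly loaded class had a median total RNA of 10.06, the well loaded class of 8.54 and all measured genes of 8.31. Spearman's rho between loading and total RNA was -0.41 across 12952 genes, a description over values that share the same total arrays.

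**Figure D3:**
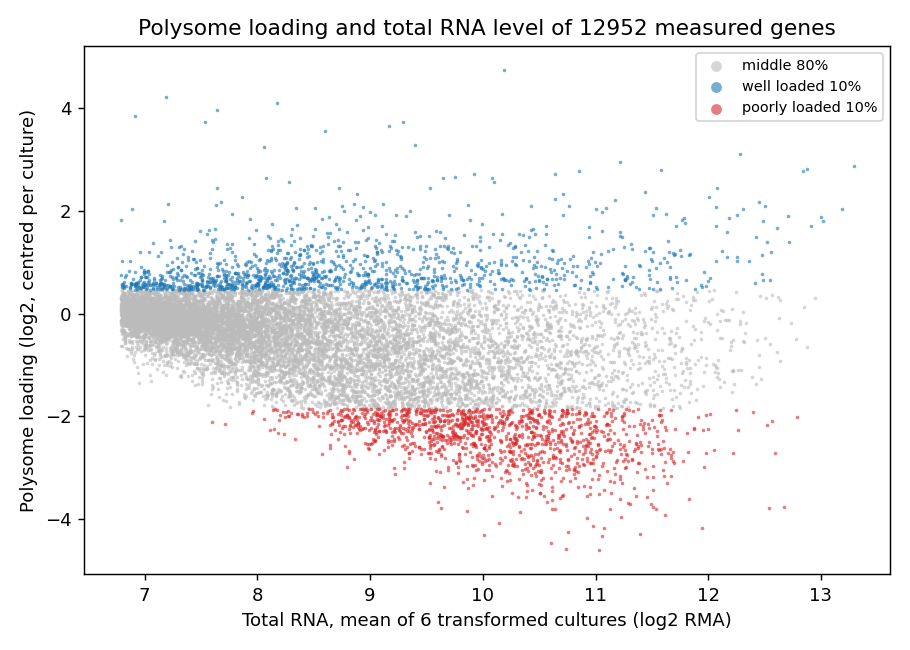
Mean loading (y axis, log2) against mean total RNA (x axis, log2 RMA value) over 6 transformed cultures for each of the 12952 measured genes, with the well loaded class in blue, the poorly loaded class in red and the rest in grey. The spread of loading widens from left to right, and the poorly loaded class sits at higher total RNA (median 10.06) than all genes (8.31). Dim genes could hardly enter that class, since its limit lies below polysomal background for them.

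The classes also differed in the length of their genes on the chromosome, which the rule did not use. The median genomic span was 10.5 kb in the well loaded class, 58.4 kb in the poorly loaded class and 21.4 kb over all measured genes. With the coding genes in 10 equal bins by span, the median loading was 0.02 in bin 1, the shortest, and -0.90 in bin 9. The share of poorly loaded genes was 0.647% in bin 1 and 24.6% in bin 9, and the share of well loaded genes 20.1% and 3.40%. The longest bin, at -0.80, did not continue this order. Total RNA differed between these bins too, with medians of 7.78 in bin 1 and 8.86 in bin 9. Since dim genes could hardly enter the poorly loaded class, the low share in bin 1 is partly set by background. All measured genes were put in 5 equal groups by total RNA, and the coding genes of the brightest group were split by span into 5 bins. There the medians went from -0.04 in the shortest to -2.11 in the longest bin, with 32.2% and 2.34% well loaded and 6.24% and 59.8% poorly loaded. Spearman's rho was -0.39 over 12351 coding genes and -0.53 over the 2561 coding genes of the brightest group. Span includes introns; the lengths of the mRNAs and proteins were not analysed here. GC content of the 300 bases around the start differed little, with medians of 61.7% in well loaded, 62.8% in poorly loaded and 60.7% in all coding genes with an entry.

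**Figure D4:**
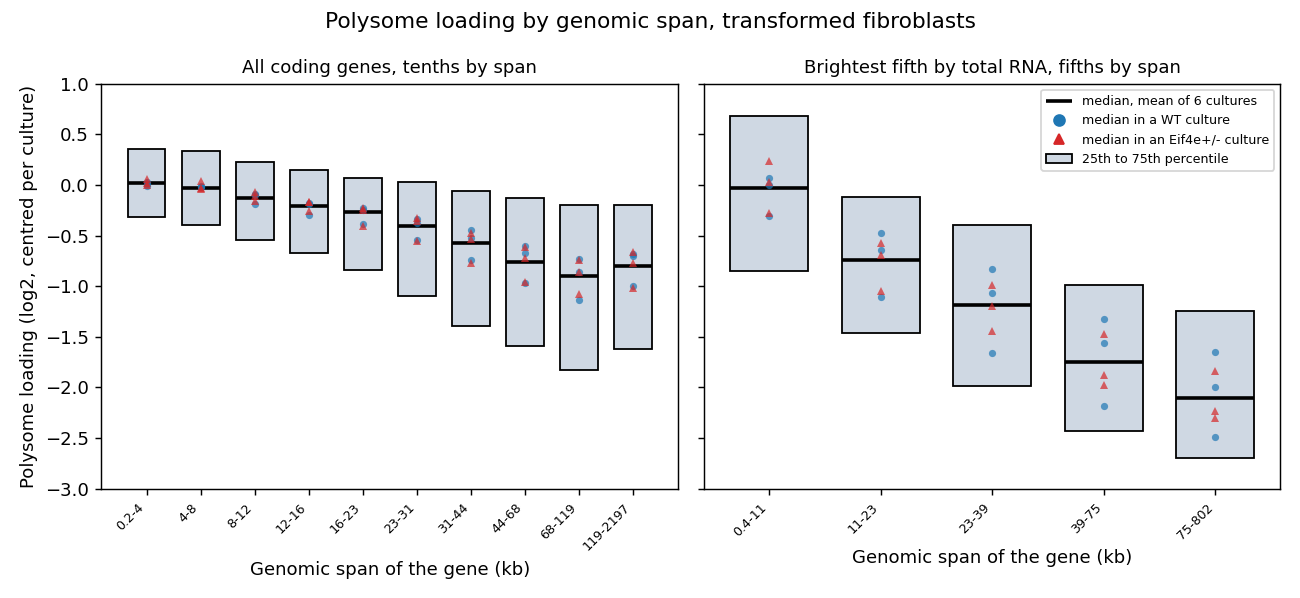
Loading (y axis, log2) by genomic span of the gene (x axis, kb) for all measured coding genes in 10 equal bins (left). The right side shows, in 5 bins, the coding genes in the brightest of 5 groups of all measured genes by total RNA. Boxes span the 25th to 75th percentile and black lines the median of the mean over 6 cultures; circles and triangles are the medians in single WT and Eif4e+/- cultures. Medians fall from 0.02 to -0.90 over the first 9 bins on the left and from -0.04 to -2.11 over the 5 bins on the right.

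The ranking was much alike in the 6 cultures. Spearman's rho between pairs of cultures was 0.84 to 0.90 across 12952 genes. Classes drawn from the 3 WT cultures and from the 3 Het cultures shared 1029 well loaded genes (79.5% of each) and 1129 poorly loaded genes (87.2% of each). Cultures differed in how far the ends reached: the median of the poorly loaded class was -2.26, -2.02 and -2.67 in WT and -2.21, -2.55 and -2.43 in Het cultures. The low values of WT culture 3 and Het culture 2 went with the narrowest polysomal spread, SDs of 1.25 and 1.28; the part of that spread in the ranking was not tested.

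The genotypes did not differ in the loading of any gene at the threshold. In limma, 0 of 12952 genes passed in either direction (0%), and 401 (3.10%) had an unadjusted p under 0.05. Among the well loaded genes 37 (2.86%) and among the poorly loaded genes 50 (3.86%) had such a p, shares close to that of all genes. The median of Het minus WT was 0.06 in the well loaded and -0.09 in the poorly loaded class. The loading of Eif4e itself differed by 0.06 ± 0.27 (SE, limma adjusted p = 0.999). A difference below the threshold does not show that the genotypes load alike.

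The untransformed cultures, which took no part in the ranking but came from the same embryos and were read by the same probe sets, gave a similar order. In the limma test there, 988 of 1295 well loaded genes (76.3%) were above the culture median, against 1686 of all genes (13.0%), and 1289 of 1295 poorly loaded genes (99.5%) were below it, against 6539 of all genes (50.5%). Classes drawn from the untransformed cultures shared 918 well loaded (70.9%) and 1014 poorly loaded genes (78.3%) with the transformed ones. Of the top 15, the mean untransformed loading ran from 1.89 for H4c3 to 3.92 for H4c4, and of the bottom 15 from -4.42 for Ktn1 to -3.26 for Smc3; each of these 30 passed in the untransformed test.

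Against the untransformed cells of the same embryos, 225 genes (1.74%) had a higher and 177 (1.37%) a lower loading in the transformed cells. These counts depended on every embryo: they were 557 and 242 without WT replicate 3, 110 and 100 without WT 1, 138 and 108 without WT 2, 107 and 89 without Het 1, 80 and 66 without Het 2 and 34 and 28 without Het 3. With the fractions on a common distribution they were 95 and 44, and with the trend on total RNA removed 592 and 231, so the share of higher calls moved from 56.0% to 68.3% and 71.9%.

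Of the histones, 5 of 20 members rose and 0 fell, against 1.74% and 1.37% of all genes, and the list median was 2.99 to 3.50 in transformed and 1.78 to 2.51 in untransformed cultures, without overlap. H4c3 had 1.65, 1.68 and 2.04 in WT and 2.26, 1.50 and 2.20 in Het untransformed cultures, and 3.01, 3.26 and 2.96 in WT and 3.10, 3.42 and 3.65 in Het transformed ones, a difference of 1.35 ± 0.17 (SE, limma adjusted p = 0.00465). Every transformed culture was above every untransformed one; the states lay apart, in either direction, in 3.34% of all measured genes. The number of histones that passed was 2 to 7 over the other settings. Of the oxidative phosphorylation list 8 of 65 passed upward (all genes, 1.74%) and 0 downward (1.37%), among them Cox7b, with -0.43 to 0.44 in untransformed and 0.76 to 1.66 in transformed cultures (1.12 ± 0.19, adjusted p = 0.0156); the count was 19 with the trend removed, 14 without WT replicate 3, 0 on a common distribution and 4, 1, 0, 2 and 6 without Het replicate 1, 2 and 3 and WT replicate 1 and 2. Its list medians overlapped between the states.

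Odc1, the rate-limiting enzyme of polyamine synthesis, moved from -2.54, -1.83 and -2.10 in WT and -2.17, -2.48 and -2.33 in Het untransformed cultures to -0.66, 0.01 and -1.23 in WT and -0.89, -1.25 and -0.78 in Het transformed ones. The difference was 1.44 ± 0.16 (adjusted p = 0.00353), and the states did not overlap. Srsf3, a splicing factor, rose by 2.03 ± 0.28 (adjusted p = 0.00734), from -3.02 to -1.29 across untransformed and -0.74 to 0.97 across transformed cultures. Fth1 rose by 1.25 ± 0.19 (adjusted p = 0.0112) and still lay in the poorly loaded class. With both fractions on a common distribution neither Odc1 nor Fth1 passed. Of the splicing factor list, 1 gene passed there, against 2 in the main fit.

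Calls on the lists that hold secretory, matrix and cytoskeletal genes were not all of 1 direction. The upward ones, however, were of genes whose transformed polysomal value was not above background. Collagens had 0 of 42 called either way, integrins 2 of 24 upward and 2 downward, and secreted signals 3 of 35 upward and 3 downward. The upward calls were Itga8 and Itga9 among the integrins and Tgfb2, Vegfc and Bmp4 among the secreted signals. With the stricter filter, 0 members of either list passed upward and 2 of each passed downward. Of the 33 genes for protein folding in the endoplasmic reticulum 11 passed downward and 0 upward, against 1.37% and 1.74% of all genes; the count was 12 without WT replicate 3, 2 on a common distribution, 4 (and 1 upward) with the trend removed, 4 without the embryo block, and 5, 1, 0, 5 and 4 without Het replicate 1, 2 and 3 and WT replicate 1 and 2. Hspa5, the chaperone BiP, had 0.09, -0.53 and -0.94 in WT and 0.09, -0.07 and 0.21 in Het untransformed cultures and -1.31, -1.07 and -1.89 in WT and -0.94, -1.77 and -1.96 in Het transformed ones. It fell by 1.30 ± 0.20 on the log2 scale (adjusted p = 0.0126), and the states met at -0.94 without crossing. Of 34 actin cytoskeleton genes 6 passed downward and 0 upward. Acta2, smooth muscle actin, had 1.48 to 2.15 in untransformed and -0.02 to 0.33 in transformed cultures and fell by 1.74 ± 0.13 (adjusted p = 0.000236). On a common distribution 0 of this list passed downward and 1 upward, with the trend removed 5 and 4, and without Het replicate 1, 2 or 3 only 1 passed downward in each case; 3 did without WT replicate 1.

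Of 35 matrix glycoproteins 6 passed downward and 1, Mfap5, upward, against 1.37% and 1.74% of all genes; the polysomal value of Mfap5 in transformed cells was not above background. Thbs1, thrombospondin, had 0.30, 0.18 and -1.13 in WT and -0.02, -0.12 and 0.23 in Het untransformed cultures and -2.51, -2.36 and -3.14 in WT and -2.16, -1.98 and -3.13 in Het transformed ones, so the states lay apart. It fell by 2.45 ± 0.20 (adjusted p = 0.000401), the widest difference among the genes named here. Among the integrins, Itgb1, the shared beta chain of many matrix receptors, fell by 1.47 ± 0.19 (adjusted p = 0.00558) and Itgav fell by 1.03. On a common distribution 0 integrins passed in either direction. The calls for Itga8 (1.24) and Itga9 (1.05) were upward, but their transformed polysomal values were not above background. For Itga8 the untransformed value was not above it either, so its difference has no measured size. The downward matrix count was 0 on a common distribution, 3 with the trend removed, 1 without Het replicate 3, 3 without WT replicate 2, 10 without WT replicate 3 and 4 without any other embryo.

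**Figure D5:**
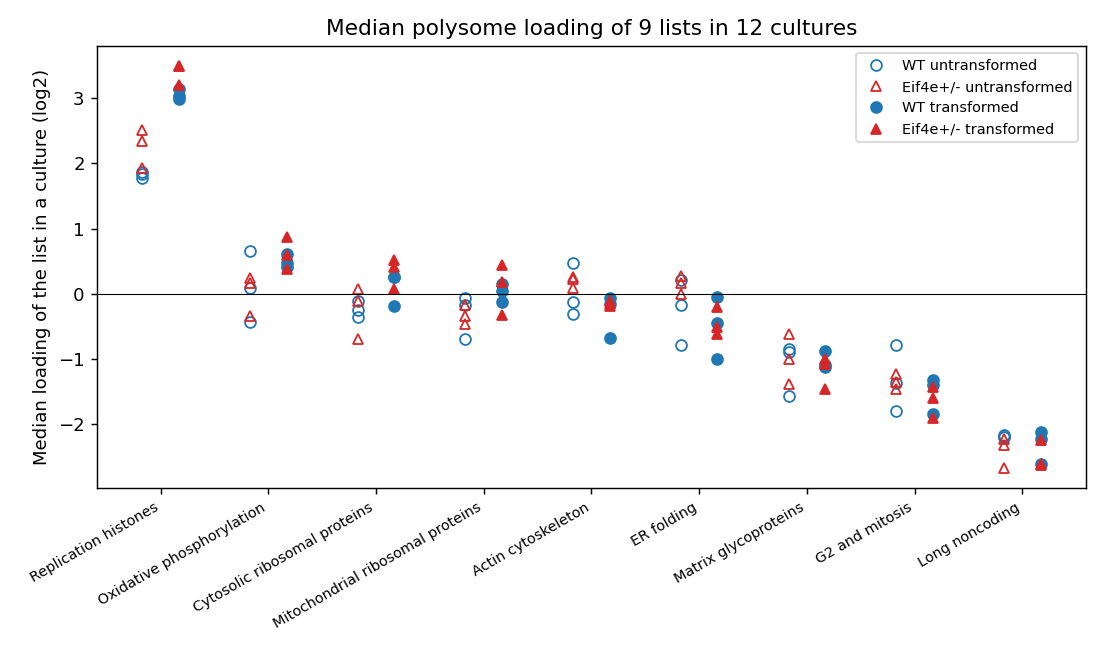
Median loading (y axis, log2) of 9 gene lists (x axis) in each of 12 cultures, untransformed (open) and transformed (filled), WT (circles) and Eif4e+/- (triangles). The histone medians do not overlap between the states (1.78 to 2.51 and 2.99 to 3.50), whereas the medians of the other 8 lists do.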

How the data were processed

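Total and polysomal RNA of 12 fibroblast cultures were hybridised to Affymetrix Mouse Gene 1.0 ST arrays after NuGEN amplification, per the labels' protocols. The authors deposited 1 log2 value per probe set and array after RMA (per the submitters' processing notes). Which RMA version and chip definition they used is not given in the sources used here. The table held 25668 probe sets; 20777 had 1 gene symbol in the platform annotation, 232 had several and 4659 none. Of 564 genes with more than 1 probe set the brightest over 24 arrays was used.

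Loading was fitted in limma 3.58.1 (R 4.3.3, lmFit and eBayes) with genotype means, and between the states with embryo as a block, since the labels give both states of an embryo; p-values were adjusted by Benjamini-Hochberg over 12952 genes. The 2 states of an embryo deviated together little, with correlations of -0.16, -0.00 and -0.40 in WT and 0.06, 0.09 and 0.06 in Het embryos, so the block rests on the labels. Fits were tested on simulated data.

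Members and lists were chosen with earlier results of these data known. The text names the 15 highest and 15 lowest loadings above polysomal background, the 10 brightest poorly loaded genes below it, the 2 highest and 2 lowest of each list, list members called between the states, and 10 set genes, some of which are not reported here. Classes and list medians carry no test. Protein features planned for the classes were not analysed here. The number of arrays limits the precision. Other normalizations, filters, centrings and left-out cultures were tried.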

Additional observations from a re-analysis of the deposited data

Results flagged for a closer look

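Of 1183 measured list members, 72 (6.09%, against 3.1% of all genes) differed in loading between transformed and untransformed cells of the same embryos in limma at an adjusted p under 0.05, 39 higher and 33 lower. In 37 of them (51.4%) the 2 states did not overlap, as in 243 of all 402 called genes (60.4%) and in 3.34% of all measured genes. The values are transformed minus untransformed on the log2 scale. Differences for protein folding in the endoplasmic reticulum were Manf -0.60, Ssr3 -0.74, Pdia4 -0.80, Stt3a -0.82, Canx -0.82, Calr -0.86, Uggt1 -0.90, Hsp90b1 -0.93, Pdia3 -1.02, P4hb -1.05 and Hspa5 -1.30. The list of oxidative phosphorylation held Cox7b 1.12, Cox4i1 1.08, Uqcrh 0.95, Ndufv1 0.90, Atp5d 0.85, Atp5j2 0.72, Cox7a2 0.72 and Cox6c 0.67. Differences for the replication histones were H4c3 1.35, H2bc9 1.24, H2bc14 1.15, H4c6 0.98 and H4c4 0.82. The list of the actin cytoskeleton held Tpm2 -0.61, Myl9 -0.85, Tagln -1.08, Actn1 -1.10, Msn -1.31 and Acta2 -1.74. Differences for matrix glycoproteins were Mfap5 1.38, Tnc -0.88, Sparc -0.92, Lox -1.28, Fn1 -1.45, Bgn -1.64 and Thbs1 -2.45. The list of integrins held Itga8 1.24, Itga9 1.05, Itgav -1.03 and Itgb1 -1.47. Differences for secreted signals were Tgfb2 1.34, Vegfc 0.84, Bmp4 0.73, Ccn2 -0.67, Ccn1 -1.01 and Inhba -1.03. The list of long noncoding RNAs held Rian 2.20, Meg3 1.77, Firre -0.89 and Airn -1.23. Rian was not above polysomal background in either state, so its difference has no measured size, and its transformed values ran from -4.68 to 0.25 with the highest in WT culture 1. The mean polysomal value of Airn, Bmp4, Itga9, Mfap5, Tgfb2 and Vegfc was below background in transformed cells, so these differences are inexact too. Itga8 and Zfp850 were below it in both states, so their differences have no measured size either. Differences for cytosolic ribosomal proteins were Rpl8 0.68 and Rpl26 0.63. The list of mitochondrial ribosomal proteins held Mrpl42 1.23 and Mrps28 1.00. Differences for splicing factors were Srsf3 2.03 and Srsf2 0.79. The list of zinc finger genes held Zfp971 0.93, Zfp553 0.73 and Zfp850 -0.87. Differences for ribosome biogenesis were Nip7 1.08 and Wdr74 0.95. Members of further lists were Odc1 1.44, Ptges3 1.43, Fth1 1.25, Gpx1 1.13, Pold2 1.06, Psmb6 1.03, Gas5 0.93, Ier3 0.59, Thy1 -0.95 and Sox2 -1.06. Of the 7 snoRNA host genes Gas5 alone passed, and 0 did with probe sets averaged or on a common distribution. The calls over all genes moved when any 1 embryo was left out.

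Probe sets that name no single gene were left out of the ranking. Of 4891 such probe sets, 2341 had total RNA above background and 1829 had polysomal RNA above it as well, with a median loading of -0.16 among the 2341. Groups of 3 cultures are too small for a test of single outlying cultures.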

How the results depend on the processing

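Zero is set by the reference. The genes called above the median in transformed cells were 4475 when centred on measured genes, 4458 with the total RNA trend removed, 4328 with both fractions quantile-normalised together, 6681 without the filter and 1253 with the stricter filter at the 60th percentile; those below were 4428 with the trend removed. In untransformed cells the counts above were 4330, 4039, 3807, 6622 and 814 in the same order, and those below 4047 with the trend removed and 4331 on the common distribution. The median of all measured genes moved from -0.31 to 0.01 or -0.70 under these choices.

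Higher and lower calls between the states were 451 and 275 with array weights. A choice made after the data were seen left out both states of the 2 embryos whose transformed cultures had the narrowest polysomal spread. It gave 699 and 271 such calls. They were 122 and 101 with the stricter filter, 95 and 44 on the common distribution; higher calls were 360 when centred on measured genes, 592 with the trend removed and 389 unfiltered, and lower calls 300 with quantile normalisation within fractions. Leaving out 1 embryo gave 34 to 557 higher and 28 to 242 lower calls, 1772 to 2010 above and 6335 to 6446 below the median in transformed, 1309 to 1710 and 5946 to 6704 in untransformed cells, and kept 1228 to 1242 well and 1235 to 1261 poorly loaded genes. Classes drawn under the stricter filter held only 796 genes each, and those drawn at 5% held 648 each. All of these genes were also in the well or poorly loaded class, so the lower counts reflect class size and are not a loss of members. At 5% this is fixed in advance, since the smaller class lies inside the larger one. Unfiltered, 539 well loaded genes were kept.

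Between genotypes, 0 genes passed in every setting, with the replicate number as a block included (0 in either direction). Equal numbers of WT and Het are different embryos, with correlations of 0.23, -0.19 and -0.05. Without the embryo block 280 genes were higher and 228 lower between the states.

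On the common distribution these loadings changed sign: Calm2 -0.13, Gas5 -0.12, Taf1d -0.38, Eef2 -0.24, Hspa8 -0.42, Actb -0.49, Ccn2 0.0165, Krt8 0.23, Sox2 0.0067 and Eif4ebp1 0.26. With the trend removed they were Azin1 0.43, Selenow 0.21, Gpx1 0.67, Mrpl42 0.64, Actn1 0.40, P4hb 0.23, Stt3a 0.17, Pdia3 0.38, Canx 0.10, Ccn1 0.28, Ccn2 0.235, Krt8 0.31, Sox2 0.24, Eif4ebp1 0.41 and Pabpc1 0.0841. Averaging probe sets gave Gas5 -1.72 and Taf1d -1.94, and centring on measured genes Snhg11 0.052. Apart from what a filter or a removed culture takes out, the cause was not tested. Of 38 lists, 18 stayed on the same side of all genes in 14 settings. Signal near background limits dim mRNAs.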
